A study of Mus musculus with 8 samples.

Results

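Splanchnic mesenchyme is the layer of lateral mesoderm that surrounds the gut tube, and at its cranial end it holds the posterior second heart field (pSHF), whose cells enter the heart and build the atrial septum. The 9 genes described here encode transcription factors that mark this mesenchyme and the tissues that arise beside it: Barx1, Osr1, Osr2, Tcf21, Wt1, Nkx2-3, Pitx1, Prrx1 and Twist1. The list was drawn up with the levels of these genes on the same Tbx5-/+ and Tbx5 WT arrays already known, and is treated as chosen by those values. Every difference between the groups given for these genes is therefore a description and not an independent test. All spots other than controls that the array annotation names after one of the 9 genes were taken, out of 27827 gene names on the array. This gave 15 of the 41174 probes and 24 of the 43379 spots on each array. Barx1, Osr2, Tcf21, Wt1, Nkx2-3, Pitx1 and Twist1 had 1 probe each, Osr1 had 2 and Prrx1 had 6, and the Wt1 probe was spotted 10 times.

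The pSHF was microdissected from mouse embryos at E9.5 and its RNA was hybridised to 8 one-colour Agilent whole genome arrays. Embryos of 4 arrays were Tbx5-/+, heterozygous for a mutation of the T-box transcription factor gene Tbx5, and those of the other 4 were Tbx5 WT. Both groups came from a line on a mixed background and from females given gonadotropins before mating, and each array held a pool of RNA. The labels do not describe the mutant allele or give the number of embryos in a pool, and they name no Cre driver. The dissected piece kept the attached foregut and left out the heart and the neural tube. Samples are named here by the embryo number of their titles, which is 1, 5, 6 or 7 in both groups. Numbers 1 and 5 shared one slide and scan, and numbers 6 and 7 shared the other, with 2 arrays of each genotype on each slide.

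The 9 proteins belong to 3 structural families. Barx1, Nkx2-3, Pitx1 and Prrx1 bind DNA through a homeodomain, Osr1, Osr2 and Wt1 through zinc fingers, and Tcf21 and Twist1 through a basic helix-loop-helix region. Barx1 is the factor of the stomach mesenchyme, where it restrains Wnt signalling so that the overlying endoderm becomes gastric, and Nkx2-3 is needed for the mesenchyme of the gut and spleen. Osr1 marks early mesoderm that forms kidney and the dorsal mesenchyme of the atrial septum. Tcf21 and Wt1 are the classical factors of the epicardium, the outer cell layer of the heart, and of the mesothelium. Pitx1 is best known for hindlimb identity, Prrx1 for limb and head mesenchyme, and Twist1 for mesenchymal state and cell migration.

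Before the results, 2 features of the arrays matter. Among the probe signals of Tbx5, probe A_52_P523712 averaged 9.13 ± 0.46 in Tbx5-/+ and 11.24 ± 0.55 in Tbx5 WT (log2 level after variance stabilisation, SD, n = 4), with no overlap between the groups, and the dimmer probe A_51_P469338 differed by -0.15. The Tbx5-/+ sample of embryo number 1 stood apart from the rest of its group. On the leading principal component, which held 56.9% of the variance, its score of -37.2 lay among those of the Tbx5 WT arrays (-52.4 to -10.0), whereas Tbx5-/+ 5, 6 and 7 scored 26.1, 112.1 and 48.7. Each member with a tested probe and each gene list below is therefore given with and without it. The share of spots well above background was 45.0% to 52.8% in Tbx5-/+ and 50.9% to 63.6% in Tbx5 WT, and the median difference over all 20028 probes tested was -0.19 on the log2 scale. All differences below are Tbx5-/+ minus Tbx5 WT in log2 units, and a value relative to the array medians has each array's own median taken off first. The signal of a probe depends on its sequence, so no amounts of RNA are compared between probes or genes, and "brightest" only says which probe had the highest signal and was used for its gene.

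Start-site sequences from RefSeq were available for 5 of the 9 genes (Barx1, Tcf21, Nkx2-3, Prrx1 and Twist1). Those of Barx1, Prrx1 and Twist1 are shown because these genes were lower in Tbx5-/+ as described below. Each is the 250 bases before the annotated start on build GRCm38.p6, 5′ to 3′ on the gene's strand, with CG dinucleotides in capitals. The builds of these sequences and of the array coordinates (mm9) differ, and coordinates of one cannot be set against the other.
Barx1, chr13:48662786-48663035, plus strand: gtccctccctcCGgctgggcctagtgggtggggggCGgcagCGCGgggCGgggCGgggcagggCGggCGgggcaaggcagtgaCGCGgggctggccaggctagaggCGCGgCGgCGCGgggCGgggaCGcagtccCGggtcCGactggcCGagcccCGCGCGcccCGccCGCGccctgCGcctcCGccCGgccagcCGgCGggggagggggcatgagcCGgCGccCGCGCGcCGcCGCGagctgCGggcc
Prrx1, chr1:163313651-163313900, minus strand: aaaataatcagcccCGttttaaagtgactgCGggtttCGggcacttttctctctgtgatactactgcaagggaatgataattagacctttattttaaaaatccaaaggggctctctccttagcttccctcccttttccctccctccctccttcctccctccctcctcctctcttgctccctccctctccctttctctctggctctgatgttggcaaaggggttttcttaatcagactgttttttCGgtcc
Twist1, chr12:33957421-33957670, plus strand: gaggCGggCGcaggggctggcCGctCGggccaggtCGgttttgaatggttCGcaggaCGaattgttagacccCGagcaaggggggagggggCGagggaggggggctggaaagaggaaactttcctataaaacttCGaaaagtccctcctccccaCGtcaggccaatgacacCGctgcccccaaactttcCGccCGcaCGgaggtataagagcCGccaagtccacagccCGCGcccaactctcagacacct

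The 3 sequences differ in composition. The Barx1 sequence is 85.6% G or C with 40 CG dinucleotides, that of Twist1 is 62.4% with 18, and that of Prrx1 is 47.6% with 4, against medians of 52.4% and 6 over 32851 start-site sequences. Tcf21 (52.4%, 5 CG) and Nkx2-3 (60.0%, 14 CG) lay between the extremes. A T-box motif (AGGTGTG) and a Gli motif (GACCACCC), neither of which contains the other, were looked for on both strands of the 250 bases. They occurred in 5.1% and 0.703% of all start-site sequences, and in 0 of the 5 members' sequences. These letters are absent from these windows, which says nothing of binding elsewhere.

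Barx1 was the member with the clearest separation of the groups. Its probe A_51_P151493 (chr13:48761424-48761483 on mm9, plus strand) read 8.46, 9.73, 8.98 and 9.43 in Tbx5-/+ 1, 5, 6 and 7. In Tbx5 WT of the same numbers it read 11.28, 11.09, 10.60 and 11.00. Every Tbx5-/+ array lay below every Tbx5 WT array, and the lowest value of all was that of Tbx5-/+ 1. The means were 9.15 ± 0.56 and 10.99 ± 0.29 (SD, n = 4), a difference of -1.84 (SE 0.29, 95% interval -2.49 to -1.19), or 3.58-fold lower. Relative to the array medians the difference was -1.52, and within slide 1 and slide 2 it was -2.09 and -1.59. Its adjusted p in limma over all probes was 0.0920, or 0.0335 with the embryo number as a block and 0.00795 without Tbx5-/+ 1, where the difference was -1.61.

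Osr1, the early mesodermal zinc finger factor, was lower by its brighter probe. Probe A_52_P63728 (chr12:9586475-9586534, mm9, plus strand) read 6.50, 8.03, 6.65 and 7.48 in Tbx5-/+ 1, 5, 6 and 7, and 8.48, 9.02, 7.88 and 8.65 in Tbx5 WT. Of the Tbx5-/+ arrays 3 lay below the lowest Tbx5 WT array, and Tbx5-/+ 5 overlapped with Tbx5 WT 6. The means were 7.16 ± 0.72 and 8.51 ± 0.48, a difference of -1.34 (SE 0.37, 95% interval -2.17 to -0.51), or 2.54-fold lower, and -1.02 relative to the array medians. Within the slides the difference was -1.49 and -1.20. The adjusted p in limma was 0.127, or 0.0335 with the block and 0.0596 without Tbx5-/+ 1 (difference -1.12). The probe was not well above background on Tbx5-/+ 1, so that it passed the filter through the Tbx5 WT group alone.

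The other Osr1 probe gave a smaller difference. A_51_P216652 (chr12:9586041-9586100, mm9) read 5.58, 7.56, 6.86 and 7.57 in Tbx5-/+ and 7.53, 7.77, 7.06 and 7.43 in Tbx5 WT, for a difference of -0.55 (SE 0.41, limma adjusted p 0.418). Tbx5-/+ 1 was the lowest array, and without it the difference was -0.12. Relative to the array medians the difference was -0.23 on all arrays. Only 2 of 4 Tbx5-/+ arrays were well above background here, so the 2 probes of this gene disagree in size. Osr2, the close relative of Osr1, was not well above background on any of the 8 arrays (A_51_P499599, chr15:35230691-35231706), with values from 4.18 to 6.23 and no fold to give.

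Prrx1, a homeobox gene of mesenchyme, was lower in 3 of 4 Tbx5-/+ arrays by 3 of its probes. The brightest, A_51_P209771 (chr1:165178384-165178443, mm9, minus strand), read 10.98, 9.72, 8.81 and 9.65 in Tbx5-/+ 1, 5, 6 and 7. In Tbx5 WT it read 10.78, 11.86, 11.19 and 11.95. Tbx5-/+ 1 sat with the Tbx5 WT arrays. Against the Tbx5 WT array of the same number it differed by 0.20, and Tbx5-/+ 5, 6 and 7 by -2.14, -2.38 and -2.29. Over all arrays the difference was -1.65 (SE 0.44, 95% interval -2.64 to -0.67), or 3.14-fold lower, and -1.33 relative to the array medians. It was -0.97 on slide 1, which holds Tbx5-/+ 1, and -2.34 on slide 2. The adjusted p in limma was 0.119, or 0.0468 with the block, and 0.0118 without Tbx5-/+ 1, where the difference was -2.05.

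The other Prrx1 probes fall into a pair with like differences, 1 of low signal with a difference near 0, and 2 that were too dim to test. A_51_P209778 and A_52_P483713, both annotated to another Prrx1 transcript variant, differed by -1.47 (SE 0.43, limma adjusted p 0.142) and -1.54 (SE 0.45, limma adjusted p 0.139). Without Tbx5-/+ 1 they differed by -1.87 and -1.95, with adjusted p of 0.0137 and 0.0126 in limma. With the block these were 0.0562 and 0.0527. A_52_P335587, which lies farthest 3′, read 7.18 ± 0.31 and 7.23 ± 0.18, a difference of -0.051 (SE 0.21, 95% interval -0.52 to 0.42, limma adjusted p 0.897). It was well above background on 3 of 4 Tbx5-/+ arrays and passed the filter through the Tbx5 WT group alone. It is annotated to the same mRNA as the brightest probe, and the interval of its difference does not reach that probe's difference. Whether its low signal narrowed its difference was not tested. The sign of its own difference changed when arrays were centred (0.27).

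A_52_P480842, farthest 5′ and annotated to a cDNA clone, was well above background on 3 of 4 Tbx5 WT arrays and on no Tbx5-/+ array. It was not tested, and no fold is given. The groups overlapped, with Tbx5-/+ 7 at 6.31 and Tbx5 WT 1 at 5.54, both not well above background. A_51_P262972 was not well above background on any array.

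**Figure D1:**
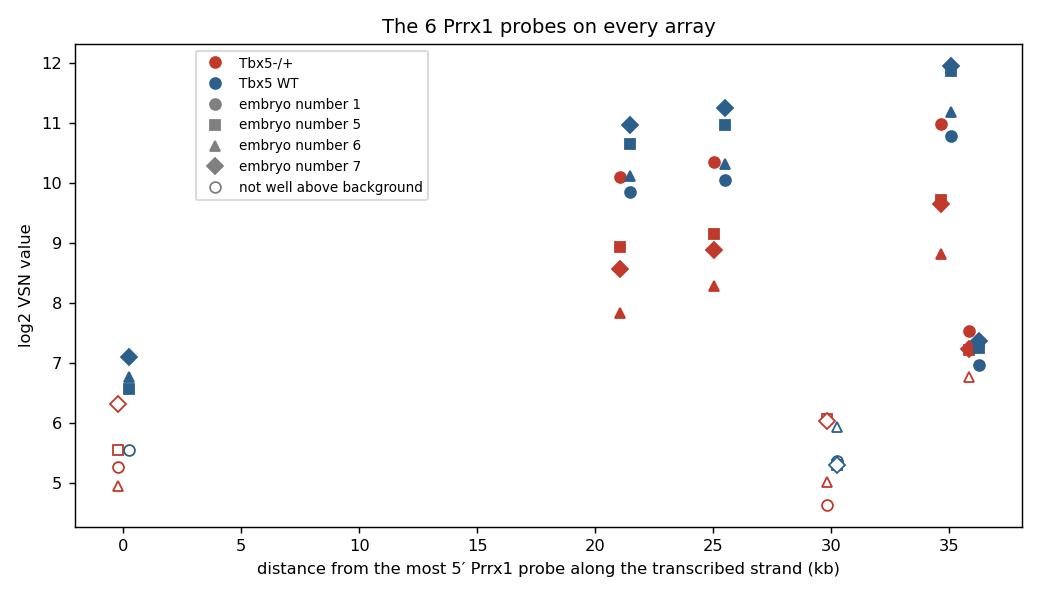
Log2 VSN values (vertical axis) of the 6 Prrx1 probes on every array, placed by distance in kb from the most 5′ probe on the transcribed strand (horizontal axis), with Tbx5-/+ in red, Tbx5 WT in blue, and open symbols where a spot was not well above background. At 21.3, 25.3 and 34.9 kb Tbx5-/+ 5, 6 and 7 lie below all Tbx5 WT arrays, and at 36.1 kb the groups overlap.

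Twist1, the basic helix-loop-helix factor of mesenchyme and cell migration, was lower by a smaller amount that was alike in all 4 embryo numbers. Probe A_52_P20906 (chr12:34644411-34644470, mm9, plus strand) read 11.27, 10.95, 10.27 and 10.93 in Tbx5-/+ and 11.97, 11.71, 11.13 and 11.50 in Tbx5 WT. The groups overlapped only where Tbx5-/+ 1 exceeded Tbx5 WT 6. Arrays of one number differed by -0.70, -0.76, -0.86 and -0.56, and the overall difference was -0.72 (SE 0.26, 95% interval -1.31 to -0.13), or 1.65-fold lower. Relative to the array medians it was -0.40. The adjusted p in limma was 0.196, or 0.0399 with the block, and 0.0497 without Tbx5-/+ 1 (difference -0.86).

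**Figure D2:**
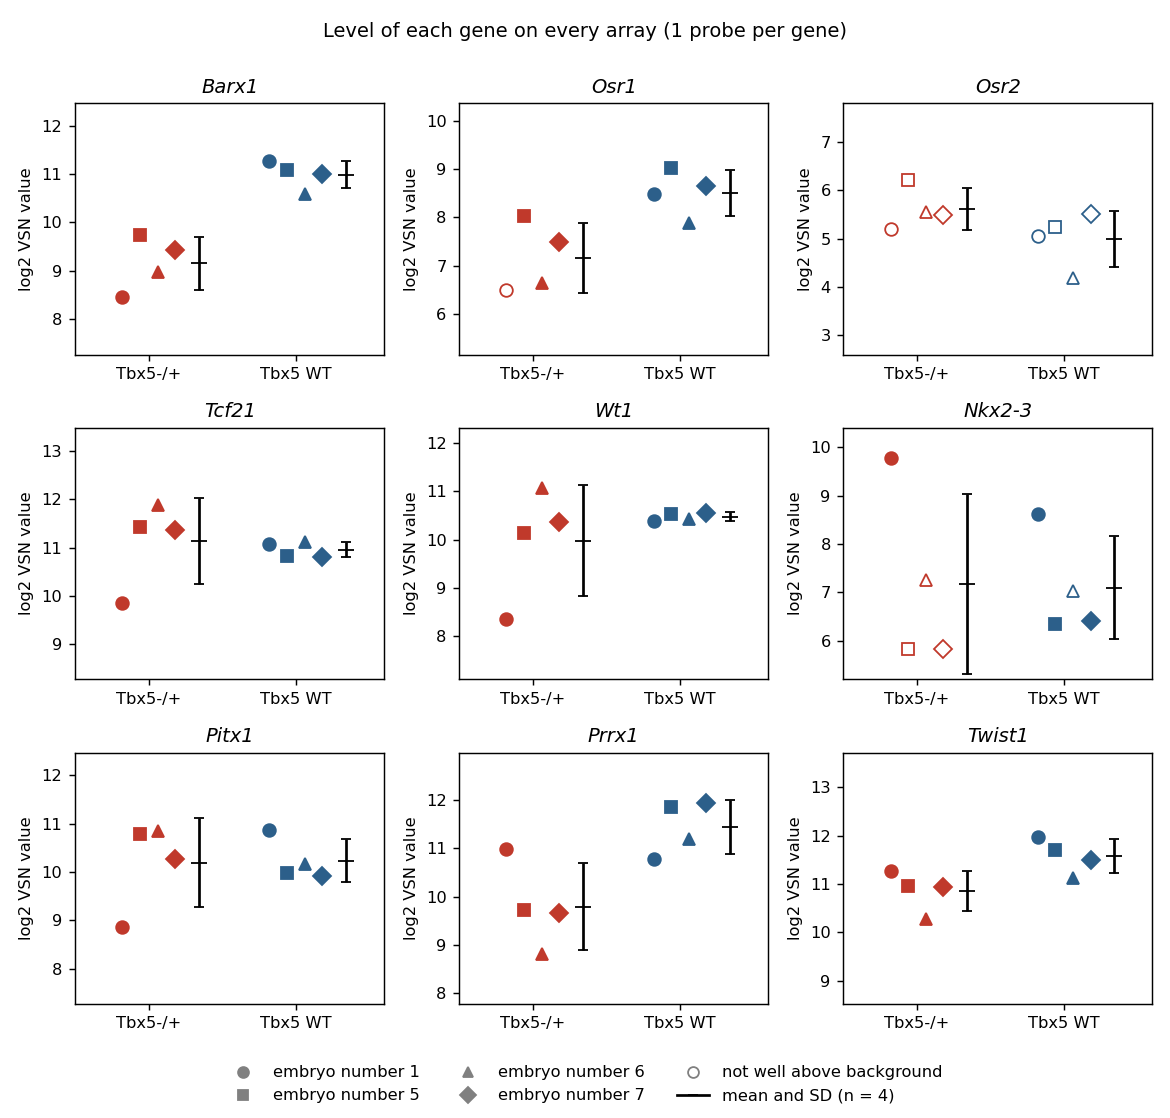
Log2 VSN values (vertical axis) of each of the 9 genes on the 8 arrays, by group, for its brightest tested probe or, for Osr2 and Nkx2-3, the only probe; symbols are embryo numbers, open symbols were not well above background, and bars are the mean and SD (n = 4). Only Barx1 shows no overlap between the groups, and Tbx5-/+ 1 is the lowest array of its group for Barx1, Osr1, Osr2, Tcf21, Wt1 and Pitx1 and the highest for Nkx2-3, Prrx1 and Twist1.

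The epicardial and mesothelial factors Tcf21 and Wt1 did not separate the groups. Tcf21 (A_51_P459944, chr10:22537563-22537622, mm9, minus strand) read 9.86, 11.43, 11.89 and 11.37 in Tbx5-/+ and 11.07, 10.83, 11.12 and 10.81 in Tbx5 WT. Tbx5-/+ 1 was the lowest of all 8 arrays, while Tbx5-/+ 5, 6 and 7 lay above every Tbx5 WT array. The difference was 0.18 (SE 0.38, 95% interval -0.68 to 1.04, limma adjusted p 0.788) with Tbx5-/+ 1, and 0.61 without it (limma adjusted p 0.0542). Relative to the array medians it was 0.50 on all 8 arrays.

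Wt1 was almost level in Tbx5 WT and spread widely in Tbx5-/+. Probe A_52_P673458 (chr2:105013428-105013487, mm9, plus strand) read 8.36, 10.14, 11.06 and 10.36 in Tbx5-/+ and 10.39, 10.54, 10.42 and 10.56 in Tbx5 WT. The SD was 1.15 in Tbx5-/+ and 0.085 in Tbx5 WT. The spots of this probe within 1 array, 10 or 9 of them after outlier spots were left out, had an SD of 0.0239 to 0.125, which covers technical error within an array only. Without Tbx5-/+ 1 the SD of the other 3 Tbx5-/+ arrays was 0.48. The difference was -0.50 (SE 0.48, 95% interval -1.56 to 0.57, limma adjusted p 0.530), and 0.044 without Tbx5-/+ 1. Relative to the array medians it was -0.18 on all arrays, and within slide 2 it was 0.22, opposite in sign.

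Pitx1, known from hindlimb and pituitary, had a profile like that of Tcf21. A_52_P522255 (chr13:55926417-55926476, mm9, minus strand) read 8.87, 10.79, 10.85 and 10.27 in Tbx5-/+ and 10.87, 9.97, 10.17 and 9.91 in Tbx5 WT. Tbx5-/+ 1 was the lowest array and Tbx5 WT 1 the highest, while in numbers 5, 6 and 7 the Tbx5-/+ array was the higher of its number by 0.81, 0.68 and 0.36. The overall difference was -0.039 (SE 0.43, 95% interval -0.997 to 0.92, limma adjusted p 0.964) and turned to 0.28 when each array was centred on its median, and to 0.40 without Tbx5-/+ 1.

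Nkx2-3, the factor of gut and spleen mesenchyme, was highest in embryo number 1 of both groups. A_51_P368123 (chr19:43689699-43689757, mm9, plus strand) read 9.77, 5.83, 7.26 and 5.83 in Tbx5-/+ and 8.63, 6.34, 7.03 and 6.40 in Tbx5 WT. In both groups number 6 was the next highest, and the groups overlapped. The probe was well above background on 1 of 4 Tbx5-/+ and 3 of 4 Tbx5 WT arrays and was not tested. Its difference was 0.073 with Tbx5-/+ 1 and -0.79 without it, a change of sign that rests on 1 array. Values not well above background enter both.

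**Figure D3:**
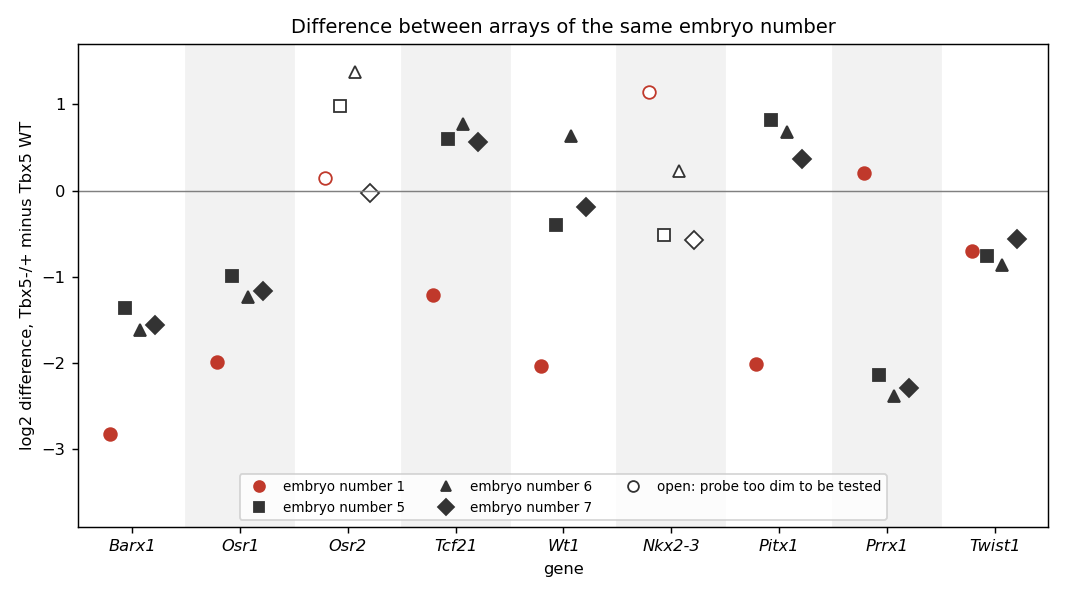
Log2 difference, Tbx5-/+ minus Tbx5 WT, between the arrays of each embryo number (vertical axis) for the 9 genes (horizontal axis); number 1 is red and open symbols are probes too dim to test. All 4 numbers lie below 0 for Barx1, Osr1 and Twist1, numbers 5, 6 and 7 for Prrx1, and number 1 alone for Tcf21 and Pitx1.

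The Tbx5-/+ sample of embryo number 1 lay apart in both directions. For the probes plotted by group, and against the mean of Tbx5-/+ 5, 6 and 7, it lay lower by the widest margin for Wt1 (-2.16, where the other 3 had an SD of 0.48), followed by Pitx1 (-1.77, SD 0.32), Tcf21 (-1.70, SD 0.28), Barx1 (-0.93, SD 0.38) and Osr1 A_52_P63728 (-0.89, SD 0.70). Osr2, not well above background on any array, gave -0.56 (SD 0.405). Tbx5-/+ 1 lay higher for Nkx2-3 (3.47, SD 0.82), Prrx1 A_51_P209771 (1.59, SD 0.51) and Twist1 (0.55, SD 0.39). Without it the difference of Barx1 was -1.61. The 2 Osr1 probes gave -1.12 (limma adjusted p 0.0596) and -0.12 (limma adjusted p 0.743), and the second of them -0.027 within slide 2. Prrx1 A_51_P209771 gave -2.05 and Twist1 -0.86.

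Counted over the array, 11 probes of 7 genes were tested, 3 of which passed the filter through Tbx5 WT only. Of the 11 differences 10 were below 0, where the median over all probes tested was also below 0 (-0.19). Relative to the array medians, those of Tcf21 (0.50), Pitx1 (0.28) and Prrx1 A_52_P335587 (0.27) lay above 0 and the others below. With limma on all 8 arrays 0 of the 11 passed an adjusted p of 0.05, as did 0% of all 20028 probes (smallest adjusted p 0.0920). Without adjustment, at p under 0.05, 6 probes of Barx1, Osr1, Prrx1 and Twist1 were lower and 0 were higher, against 18.5% and 3.37% of all probes. One, that of Barx1, did not overlap and was lower, against 9% of all probes with values on all arrays, and 0 did so upward, against 0.744%. With the embryo number as a block, 4 probes passed at an adjusted p under 0.05, all lower, 1 each of Barx1, Osr1, Prrx1 and Twist1, against 10.7% of all probes lower and 0.379% higher. Without Tbx5-/+ 1, 5 probes passed, all lower, 1 of Barx1, 3 of Prrx1 and 1 of Twist1, against 12.1% lower and 7.03% higher. The members were chosen with results of this contrast known, so nothing is read from these counts. The median difference over the 7 genes was -0.72, and -0.40 when each array was centred.

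**Figure D4:**
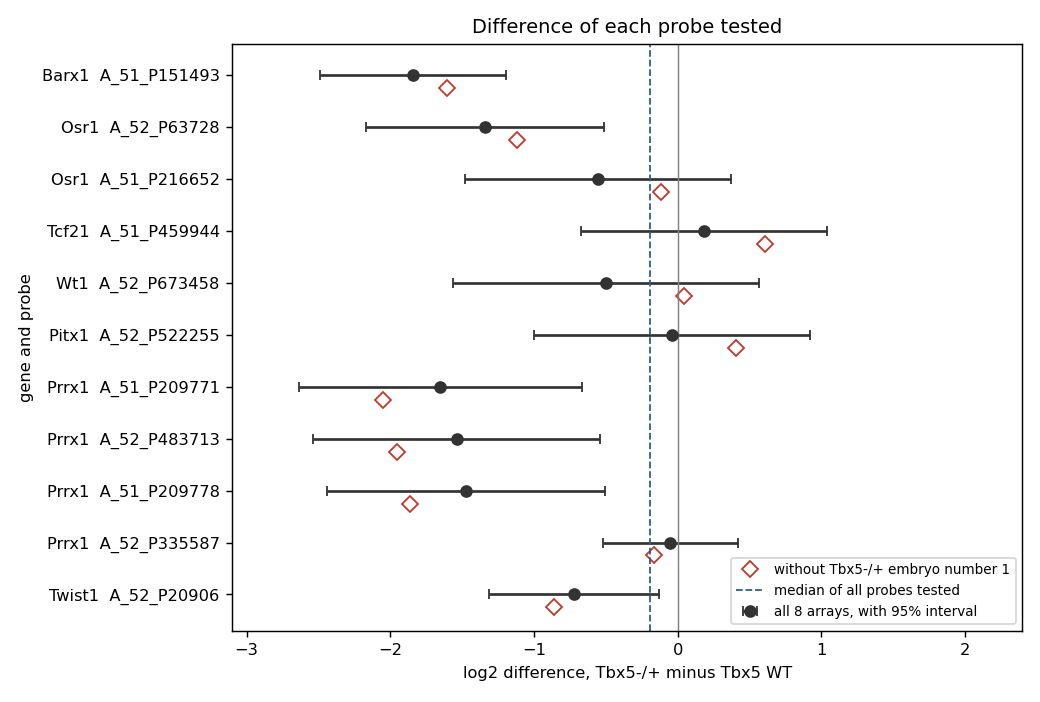
Log2 difference, Tbx5-/+ minus Tbx5 WT (horizontal axis), of the 11 probes tested with the 95% interval of limma on all 8 arrays; open diamonds leave out Tbx5-/+ 1 and the dashed line is the median of all probes tested. The intervals of Barx1, Twist1, 1 Osr1 probe and 3 Prrx1 probes lie below 0, and those of Tcf21, Wt1, Pitx1 and the remaining Osr1 and Prrx1 probes reach across it.

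Profiles over the 8 arrays were compared by the root mean square difference of log2 values, each centred on its own mean. Among the 7 genes tested, Pitx1 and Tcf21 were the most alike (0.27), then Barx1 and Osr1 (0.36), Tcf21 and Wt1 (0.41) and Pitx1 and Wt1 (0.47). Prrx1 was least like Wt1, Tcf21 and Pitx1 (1.41 to 1.48). Over all genes, those nearest to Barx1 were Osr1, itself a member, and Hoxb4 (0.39), which is outside the list. Those nearest to Osr1 were Col1a2 (0.26), a collagen chain of mesenchyme, and the ligand gene Wnt4 (0.27). Prrx1 was nearest to Nr4a2 (0.15), a nuclear receptor, and F830028O17Rik (0.17), and Twist1 to Sdha (0.054), a subunit of succinate dehydrogenase, and Ly6e (0.083). Tcf21 was nearest to Xlr4b (0.11) and Dock9 (0.13), Wt1 to Pde9a (0.23) and Gpr85 (0.27), and Pitx1 to Slc7a7 (0.22) and the cDNA that the files name AK033632 (0.22). These are descriptions over 8 arrays that share both slides.

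Related genes were read from fixed lists, each gene by its brightest tested probe. The background at an unadjusted p under 0.05 is 18.5% of all probes lower. For an adjusted p under 0.05 it is 10.7% lower with the embryo number as a block, and 12.1% lower and 7.03% higher without Tbx5-/+ 1. Counts called lower or higher below are at that unadjusted p on all 8 arrays unless the block or the left-out sample is named. Gata4, Sfrp1, Dcn, Snai2, Cldn5, Pecam1 and Sox2 fell outside the rule for naming genes and were picked after their values were seen.

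Of 18 splanchnic and septum transcription factors, 16 were tested, with 7 lower and 0 higher and a median difference of -0.63 (-0.62 without Tbx5-/+ 1). Without the members Barx1, Osr1 and Nkx2-3, 14 were tested, 5 were lower and 0 higher, and their median was -0.53. Foxf1a, the forkhead factor of splanchnic mesenchyme, was at 7.21 ± 0.61 in Tbx5-/+ and 8.80 ± 0.51 in Tbx5 WT, a difference of -1.59. Its limma adjusted p was 0.0958, or 0.0347 with the block and 0.0322 without Tbx5-/+ 1. Gata6, a zinc finger factor of heart and gut mesoderm, differed by -1.17, with a limma adjusted p of 0.110, or 0.0355 with the block and 0.0356 without Tbx5-/+ 1. Gata4 passed as lower with the block, and without Tbx5-/+ 1 there were 4 that passed, all lower (Barx1, Foxf1a, Gata6 and Gata4).

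Of the genes reported in other tissues as downstream of the members, 8 of 15 were tested. The ligand genes Bmp4 (-1.06) and Wnt5a (-0.91) were lower, 0 were higher, and the median was -0.14 (-0.20 without Tbx5-/+ 1). Bmp4 alone passed with the block (limma adjusted p 0.0347). Without Tbx5-/+ 1 both were lower at an adjusted p under 0.05, and Aldh1a2, which makes retinoic acid, was higher (0.76, limma adjusted p 0.0457) where it differed by 0.021 on all arrays. Sfrp1, the secreted Wnt inhibitor known downstream of Barx1 in the stomach, differed by -0.29 (limma adjusted p 0.506). The paralogs of the members had 0 lower and 0 higher of 7 tested, with a median of -0.19 (-0.15 without Tbx5-/+ 1) and 0 passing in limma with the block or without that sample. Barx2 differed by 0.53.

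In the mesenchyme and cell migration list, all 21 genes were tested and 4 were lower, 2 of them the members Prrx1 and Twist1. The other two were Fn1 (-1.05), which encodes fibronectin, and Col1a2 (-0.99). The median was -0.41 on all arrays and -0.16 without Tbx5-/+ 1. Without the members Prrx1 and Twist1, 2 of 19 were lower and the median on all arrays was -0.33. With the block 5 passed, all lower (Prrx1, Twist1, Fn1, Col1a2 and Dcn). Without Tbx5-/+ 1, Prrx1, Twist1 and Fn1 passed as lower and Snai2, a factor of cell migration, as higher (0.94, limma adjusted p 0.0191).

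The epicardium and mesothelium list had 2 lower of 14 tested, Bnc1 (-1.08, limma adjusted p 0.0958, or 0.0420 with the block) and Upk3b (-0.91, limma adjusted p 0.144, or 0.0616 with the block). The median was -0.21, and -0.081 without Tbx5-/+ 1, where Bnc1 and Upk3b passed as lower and Aldh1a2 as higher. Its brightest genes Krt8 and Aldh1a2 differed by -0.46 and 0.021.

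Markers of other cells in the dissected piece were also measured, since in bulk tissue fewer cells of a type and less RNA per cell cannot be told apart. Liver bud markers were lower in 3 of 8 tested, Prox1 (-1.16), Trf (-1.81) and Apoa2 (-1.89), of which Prox1 and Trf passed with the block and without Tbx5-/+ 1. The median was -0.90 (-0.60 without Tbx5-/+ 1), and the mean level over the list ran from 8.42 to 10.14 in Tbx5-/+ and from 8.90 to 11.55 in Tbx5 WT. Their brightest genes were Afp, which encodes alpha-fetoprotein, at 14.56 ± 1.90 and 15.43 ± 1.09, and Fgb, which differed by -0.93.

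Endothelial markers were lower in 5 of 12 (Kdr, Tie1, Sox18, Cldn5 and Pecam1), with a median of -0.40 (-0.32 without Tbx5-/+ 1) and mean levels of 10.51 to 11.17 in Tbx5-/+ and 11.24 to 11.56 in Tbx5 WT. Kdr, the VEGF receptor gene (-1.12), and Sox18 (-1.26) passed with the block and without Tbx5-/+ 1. The brightest, Egfl7 and Emcn, differed by -0.31 and 0.21. Foregut endoderm markers were lower in 1 of 12, Sox17 (-1.01), which passed with the block. Without Tbx5-/+ 1, Sox17 and Sox2 (-0.81) passed as lower. The median was -0.43 (-0.49 without Tbx5-/+ 1), the mean levels were 10.31 to 10.75 and 10.59 to 11.20, and the brightest, Krt18 and Krt8, differed by 0.23 and -0.46.

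Cardiomyocyte markers had 0 lower and 0 higher of 16 tested on all arrays, with a median of 0.031, and 0 passed with the block in limma. Without Tbx5-/+ 1 the median was 0.36 and Myl7, an atrial myosin light chain gene, passed as higher (0.95, limma adjusted p 0.0146). Myl7 was at 17.63 ± 0.70 in Tbx5-/+ and 17.02 ± 0.14 in Tbx5 WT, and Myh7, the other of the brightest, differed by 0.72. The mean level of these markers ran from 12.75 to 14.33 in Tbx5-/+ and from 13.34 to 14.17 in Tbx5 WT. Heart was left out of the dissection by the study's methods, and whether any heart tissue remained was not tested.

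Primitive erythrocyte markers had 0 of 9 in each direction on all arrays (mean levels of 11.58 to 14.19 and 11.60 to 13.99) and a median of -0.039. Without Tbx5-/+ 1 the median was 0.36 and the embryonic globin gene Hbb-bh1 passed as higher (1.24, limma adjusted p 0.0415). Hbb-bh1 and Hba-a1, the brightest, differed by 0.66 and 0.58 on all arrays. Neural crest markers had a median of -0.18 over 6 tested (-0.21 without Tbx5-/+ 1), and Ets1 and Sox9 differed by -0.30 and -0.053. Neural tube, nephric duct, and somite and limb bud markers had 0 lower and 0 higher of 6, 3 and 4 tested, with medians of -0.13, 0.41 and 0.18 (-0.15, 0.13 and 0.25 without Tbx5-/+ 1). Their brightest genes differed by 0.11 (Tubb3), -0.76 (Nkx6-1), 0.41 (Eya1), 0.42 (Gata3), 0.097 (Pax1) and 0.20 (Tcf15). The part of these cells in the differences of the members was not tested.

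**Figure D5:**
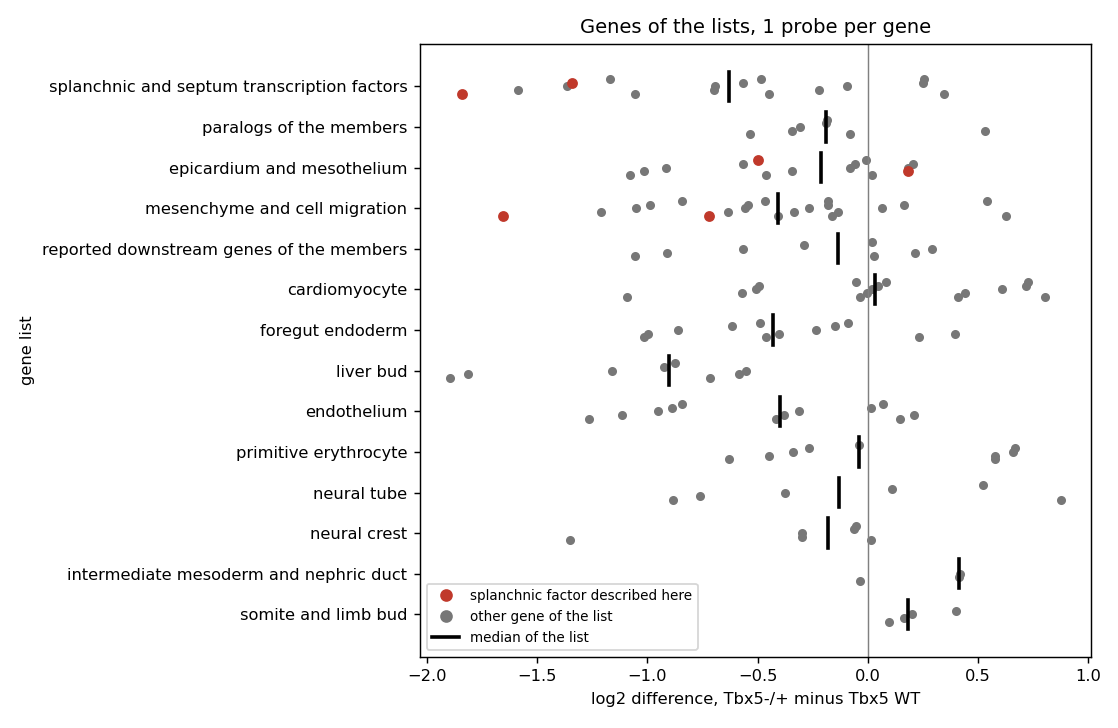
Log2 difference, Tbx5-/+ minus Tbx5 WT (horizontal axis), of every tested gene of each list (vertical axis), 1 probe per gene, with members in red, other genes in grey and the list's median as a black bar. The medians run from -0.90 for liver bud to 0.41 for intermediate mesoderm and nephric duct, and -0.63 is that of the splanchnic and septum transcription factors.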

How the data were processed

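RNA of the pSHF was measured on 8 one-colour arrays, 4 per group, grouped by the genotype in the labels. Per the file headers, the deposited scanner files give linear spot intensity read by Agilent Feature Extraction 10.5.1.1, with probes placed on mm9. A second deposited table gives log2 values, which the authors corrected for background and normalised by variance stabilisation (VSN). The members and gene lists were chosen with earlier results of these data known.

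The median local background was taken from each spot's mean signal, 1115 outlier spots were left out and repeated spots were averaged. VSN was rewritten in R 4.3.3 because no package for it was at hand, keeping 90% of probes in each of 7 iterations, and matched the authors' deposited log2 values across probes with r of at least 0.9999. The filter kept a probe if the scanner software marked it well above background on every array of either group (20028 of 41174 probes). Groups were compared with limma 3.58.1 (moderated two-sided test from lmFit and eBayes, genotype only) and Benjamini-Hochberg adjustment over all probes tested, at a threshold of 0.05. limma replaced the study's unpaired two-class test. The code was tested on simulated data. Named genes were all members, the 2 genes of nearest profile to each tested member, at most 3 genes of each list with the smallest p, and the 2 brightest of each list of cell type markers; exceptions are stated where they stand. Some genes of the lists are not reported here.

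Embryo numbers in the titles were taken as pairs for the block. Deviations from the group means of same-numbered samples correlated across probes at 0.44, 0.40, 0.59 and 0.14 for numbers 1, 5, 6 and 7. Between different numbers the correlations ran from -0.60 to 0.37. Tbx5-/+ 7 was more like Tbx5 WT 6 (0.37) than Tbx5 WT 7 (0.14), so the pairing is uncertain for number 7. Deviations within a group cancel out, so these correlations are not independent of each other. The labels say that pools were independent but not that they came from separate litters, so p-values measure the spread between these samples. Alternatives replaced VSN by scaling to the 75th percentile, by normexp (offset 50) and quantile normalisation, by centring or by the deposited values, changed the filter, added a block, or left out each array in turn. The number of arrays limits the precision.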

Additional observations from a re-analysis of the deposited data

Results flagged for a closer look

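Of 30 groups of 4 arrays checked over the 15 probes, 1 had a sample set apart from the others. For Prrx1 probe A_51_P262972, Tbx5 WT embryo number 6 read 5.94 on the log2 scale, the next highest array 5.36, and the gap was 0.904 of the group's range, past Dixon's critical value. Chance gives about 1 such group in 20, and the probe was not well above background on any array.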

How the results depend on the processing

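The number of member probes passing an adjusted p of 0.05 was 0 under every change of normalisation and filter and with the array number as a block, 4 with the replicate block that pairs embryo numbers, and 0 to 5 when 1 array was left out (5 without Tbx5-/+ 1, and 1, that of Barx1, without Tbx5 WT 1). Over all probes, 2221 passed with the block, 3836 without Tbx5-/+ 1 and 211 without Tbx5 WT 1. Among the member probes the block changed no call other than these 4, and among the genes of the lists it changed those named with them. The median difference of the member genes was -0.36 with the 75th percentile scaling, beyond the spread of the arrays, where the median of all probes was 0.0996 in place of -0.19, and -0.87 to -0.59 when 1 array was left out.

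Barx1, Osr1, Twist1 and the 3 brighter Prrx1 probes kept their direction under every alternative run. Tcf21 reversed within slide 1 (-0.31) and ran from -0.070 to 0.61 when 1 array was left out. Wt1 was 0.22 within slide 2 and ran from -0.86 to 0.044 with 1 array left out. Pitx1 reversed with 75th percentile scaling (0.32), quantile normalisation (0.24), centring (0.28) and within slide 2 (0.52), and ran from -0.26 to 0.40 with 1 array left out. Prrx1 A_52_P335587 reversed with quantile normalisation (0.050), centring (0.27) and within slide 1 (0.26), and ran from -0.17 to 0.088 with 1 array left out. The cause of these changes was not tested.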
